A study of Homo sapiens with 27 samples.

Results

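The comparison was of transforming growth factor beta (TGFB) added to oncostatin M (OSM) against OSM alone, in MCF10A, a non-tumorigenic line of human breast epithelial cells long kept in culture. It rested on 6 of the 27 libraries of the series, 3 labelled OSM+TGFB and 3 labelled OSM, and the labels alone chose them. Cells were grown with horse serum, insulin, hydrocortisone, cholera toxin, antibiotics and 20 ng/ml epidermal growth factor (EGF), seeded on collagen and kept for 18 h without growth factors. They then received fresh medium without growth factors but with OSM at 10 ng/ml, or with OSM and TGFB at 10 ng/ml each, and polyadenylated RNA was sequenced 24 h later. Both groups therefore carried OSM and differed in TGFB alone. A further 4 groups served to set the change beside that with TGFB elsewhere: cells given phosphate-buffered saline (PBS), TGFB alone, EGF alone, or EGF with TGFB, with 3 libraries each. In these groups EGF and TGFB were given at 10 ng/ml each, also for 24 h. All libraries came from 1 cell line, and the labels do not say that replicates were separate cultures, so the p-values measure the spread between these libraries, which may be technical.

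TGFB binds a pair of receptor kinases, TGFBR2 and TGFBR1, which phosphorylate SMAD2 and SMAD3. These join SMAD4, enter the nucleus and act on genes together with other factors, among them AP-1. In epithelial cells the pathway is known for halting proliferation, for raising matrix and contractile genes, and for epithelial-mesenchymal transition (EMT), in which cells lose epithelial junctions. OSM is a cytokine of the interleukin-6 family that signals through OSMR and IL6ST (gp130) to JAK kinases, STAT3 and ERK. Its known targets include SOCS3, a feedback inhibitor, and acute-phase genes.

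The promoters of the genes that rose most, and of 3 classical TGFB targets (SMAD7, SKIL and PMEPA1), were searched for short SMAD and AP-1 motifs, because those factors are known to meet on TGFB-responsive promoters. The search covered both strands of the 250 bases before the RefSeq start (GRCh38.p14) for GTCTAGAC (the palindromic SMAD element), CAGACA (a SMAD element) and TGANTCA (AP-1). Of 15 genes searched, 9 had an entry, and 3 of these held a motif, which are printed 5′ to 3′ on the gene's strand with the motifs in capitals. ODAPH is on the plus strand at chr4:75555816-75556065, MMP10 on the minus strand at chr11:102780629-102780878 and POSTN on the minus strand at chr13:37598769-37599018.
ODAPH: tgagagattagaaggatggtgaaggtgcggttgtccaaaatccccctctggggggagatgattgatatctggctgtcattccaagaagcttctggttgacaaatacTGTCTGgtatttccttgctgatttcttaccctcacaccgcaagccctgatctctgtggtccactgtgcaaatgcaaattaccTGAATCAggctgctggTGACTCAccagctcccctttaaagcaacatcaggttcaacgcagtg
MMP10: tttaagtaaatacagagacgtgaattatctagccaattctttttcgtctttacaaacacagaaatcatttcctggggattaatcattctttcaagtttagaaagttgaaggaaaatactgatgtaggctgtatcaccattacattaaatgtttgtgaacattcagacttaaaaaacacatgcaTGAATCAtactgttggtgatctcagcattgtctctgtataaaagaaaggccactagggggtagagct
POSTN: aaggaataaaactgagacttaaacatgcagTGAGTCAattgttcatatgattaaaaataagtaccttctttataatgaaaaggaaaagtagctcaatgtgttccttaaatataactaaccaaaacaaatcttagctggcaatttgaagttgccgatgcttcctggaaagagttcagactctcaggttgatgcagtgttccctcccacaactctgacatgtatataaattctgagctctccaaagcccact
ODAPH held CAGACA, read on the opposite strand, from 144 bases before the start, and TGANTCA from 62 and from 46 bases before it, with no overlap between the motifs. MMP10 held TGANTCA from 67 bases before the start and POSTN from 220 bases before it. Over all 35116 promoter entries of that length, 13.6% held CAGACA, 6.57% held TGANTCA, 0.182% held GTCTAGAC and 19.2% held at least 1 of the motifs. No factor binding was measured in these libraries.

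Total counts ran from 35.2 to 46.6 M (mega) in the 6 libraries, and from 30.1 to 52.9 M over all 27. The first principal component (51.7% of the variance) separated OSM from OSM+TGFB. The second component (15.4%) set replicate 3 of both groups, at -34 and -30.2, apart from the other 4 libraries, at 11.3 to 21.2. The labels name no batch. Markers of basal mammary epithelium were present: KRT5 stood at 6847 to 7164 counts per 1 M counts (CPM, scaled by TMM) with OSM and 7251 to 8124 CPM with OSM+TGFB, and TP63 at 183 to 195 and 192 to 199 CPM. EPCAM was low in both groups (5.73 to 6.95 and 2.72 to 3.83 CPM), and among luminal markers PGR had 0 counts in the 6 libraries. The summed level of 5 luminal markers was 5.4 to 6.2 CPM and 4.24 to 5.7 CPM, and that of 6 endothelial markers 3.19 to 3.94 CPM and 2.59 to 3.05 CPM. The 6 leukocyte markers summed to 96.3 to 119 CPM and 68.2 to 75.1 CPM, nearly all of it CD14 and CD68, while PTPRC and CD3E were at or near 0.

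With TGFB added to OSM, 8101 of 16611 rows tested (48.8%) changed, 4083 higher (24.6%) and 4018 lower (24.2%), at an adjusted p under 0.05 by the quasi-likelihood test of edgeR (Benjamini-Hochberg adjustment over all rows). At least 2-fold, 1450 rows were called (8.73%), 760 rows were higher (4.58%) and 690 lower (4.15%). The 3 libraries of a group did not overlap those of the other for 8793 rows (52.9%). The median log2 fold change over all rows was 0.00, so fold changes are relative to a centre at 0. In such bulk samples, fewer cells of a type and less RNA per cell cannot be told apart.

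FN1 (fibronectin, a matrix glycoprotein; ENSG00000115414, chromosome 2, 215360440 to 215436073, minus strand, GRCh38) stood at 420.1, 344 and 304 CPM with OSM and at 9276, 8548 and 8449 CPM with OSM+TGFB, a log2 fold change of 4.62 ± 0.20 (SE; edgeR adjusted p 3.4e-13). Here and below, a value marked SE was worked back from the edgeR test and is not a standard error estimated by the fit. It is a rough guide, least reliable for large changes and low counts. The FN1 groups were far apart, and every OSM+TGFB library was above every OSM library. TGM2 (transglutaminase 2, which crosslinks matrix proteins; ENSG00000198959, chromosome 20, 38127385 to 38166578, minus strand) went from 72.9, 75.0 and 72.8 CPM to 1266, 1185 and 1408 CPM, a log2 fold change of 4.13 ± 0.19 (SE; edgeR adjusted p 8.5e-13). LMCD1 (a LIM-domain transcriptional cofactor; ENSG00000071282, chromosome 3, 8501807 to 8574668, plus strand) went from 1.99, 1.66 and 1.11 CPM to 31.6, 30.01 and 33.3 CPM (4.32 ± 0.14).

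The largest fitted rises were in genes that were nearly silent with OSM alone. ODAPH (known for its part in enamel mineralisation; ENSG00000174792, chromosome 4, 75556048 to 75565871, plus strand) went from 0.199, 0.399 and 0.243 CPM to 18.9, 20.1 and 16.2 CPM, a log2 fold change of 5.99 ± 0.21 (SE; edgeR adjusted p 1.4e-15). PDGFB (the B chain of platelet-derived growth factor, a mitogen for mesenchymal cells) had 3, 3 and 4 counts with OSM and 178, 205 and 200 counts with TGFB as well. Its ratio of counts, scaled by total counts and not by TMM, was 58.5, with a 95% interval of 31.6 to 123 that covers counting error only. The other genes among the 12 strongest rises were KCNJ12 (a potassium channel), ITGB3 (an integrin), CGB8 (a subunit of chorionic gonadotropin), MMP10 and MMP13 (matrix metalloproteinases), POSTN (periostin) and TAGLN (transgelin), with log2 fold changes from 3.38 to 3.96. CGB8 has near-identical neighbouring copies, so its value is uncertain.

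Among the 12 strongest falls, NMU (neuromedin U, a neuropeptide) went from 4.75, 6.201 and 7.75 CPM to 1.09, 1.21 and 1.16 CPM, a log2 fold change of -2.43 ± 0.27 (SE; edgeR adjusted p 8.8e-08). NUSAP1 (a mitotic spindle protein) went from 34.2, 32.1 and 46.5 CPM to 6.39, 6.13 and 9.08 CPM, and OLFM4 (olfactomedin 4, a secreted glycoprotein) from 138, 168 and 94.97 CPM to 29.1, 34.6 and 23.4 CPM. GLDC (glycine decarboxylase), SAPCD2, SLCO4A1 (an organic anion transporter), HP (haptoglobin), KCNQ5 (a potassium channel), FGFBP1 (an FGF-binding protein), CAVIN2 (a caveolar coat protein) and CXCR2 (a chemokine receptor) had log2 fold changes between -2.34 and -2.06. SPC25, a kinetochore protein, had 218, 231 and 290 counts with OSM and 5, 81 and 64 with OSM+TGFB. Its log2 fold change of -2.15 became -1.63 without OSM+TGFB replicate 1 and -2.71 without OSM+TGFB replicate 2, and its symbol covers 2 rows between which reads can be split.

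**Figure D1:**
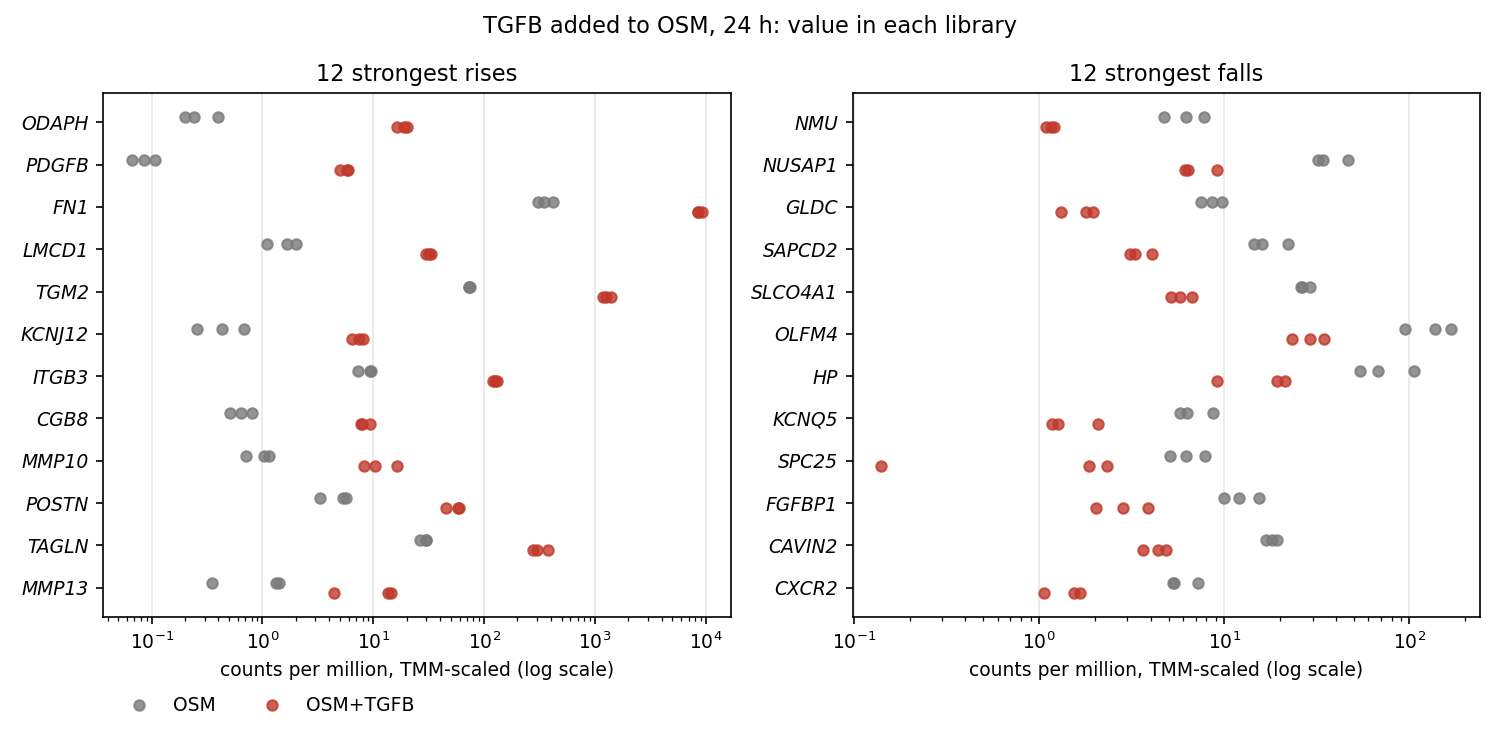
Level of the 12 genes with the largest rise and the 12 with the largest fall, in CPM on a log axis, with 1 point for each of the 3 OSM libraries (grey) and the 3 OSM+TGFB libraries (red). For each of the 24 genes the groups do not overlap, as the rule that chose them required; FN1 goes from 304 to 420.1 CPM up to 8449 to 9276 CPM, and the lone low point of SPC25 is OSM+TGFB replicate 1.

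Genes of the TGFB pathway's own feedback rose. Of 30 tested members of the signalling and feedback list, 22 were higher (against 24.6% of all rows) and 2 lower (against 24.2%), with a median log2 fold change of 0.63. Among the inhibitors, SMAD7, which targets the receptors for degradation, went from 22.9, 20.5 and 21.0 CPM to 51.7, 52.97 and 51.5 CPM (1.28 ± 0.07, SE; edgeR adjusted p 2.5e-12). SKIL (SnoN, a corepressor of SMADs) rose by 1.36 ± 0.07, PMEPA1 (which sequesters SMAD2 and SMAD3) by 1.80 ± 0.10 and LDLRAD4 (a membrane inhibitor of the same step) by 2.32 ± 0.21, each with no overlap between groups. PMEPA1 stood at 223, 198 and 214 CPM with OSM and at 770.3, 727 and 712 CPM with both.

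Among the receptors, TGFBR1 went from 119 ± 7.37 to 265 ± 13.5 CPM (SD, n = 3), a log2 change of 1.16, and TGFBR2 rose by 0.27 ± 0.07. TGFBR3 (betaglycan, a coreceptor) was a member that fell, from 7.19 ± 0.521 to 2.89 ± 0.570 CPM. The other was TGIF2, a corepressor, at -0.62, named after its values were seen. Of the ligands, INHBA (a subunit of activin A) rose from 1.03 ± 0.187 to 7.21 ± 0.719 CPM and TGFB2 from 1.13 ± 0.169 to 4.64 ± 0.741 CPM. LTBP2, a matrix protein of the family named for binding latent TGFB, rose by 1.38 ± 0.08. Neither TGFB1 (-0.11 ± 0.09) nor SMAD3 (-0.05 ± 0.07) passed the test; TGFB1 passed it at -0.22 (edgeR adjusted p 0.045) without OSM replicate 3. In the list of known TGFB targets, 26 of 29 were higher and 0 lower (24.6% and 24.2% of all rows were), with a median of 1.44. NEDD9 (a focal adhesion scaffold) went from 2.25, 2.17 and 2.24 CPM to 23.1, 21.9 and 23.2 CPM. The 3 members not called were JUNB, ID1 and ID3, named after their values were seen, and CDKN2B, a cell cycle inhibitor, had too few counts to be tested.

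Matrix genes rose as a group. Of 41 tested matrix proteins, 33 were higher and 2 lower (median 1.26, against 0.00 for all rows). Of 36 crosslinking enzymes, proteases and inhibitors, 29 were higher and 2 lower (median 1.35). Among all rows, 24.6% were higher and 24.2% lower. POSTN (periostin) went from 5.35, 3.32 and 5.70 CPM to 58.1, 45.6 and 59.6 CPM. FBLN5 (fibulin 5, an elastic fibre protein) went from 2.19, 2.02 and 1.999 CPM to 18.0, 18.5 and 16.7 CPM, and CCN2 (connective tissue growth factor) from 6.77, 5.69 and 8.43 CPM to 42.9, 45.2 and 50.02 CPM. In each of these genes every OSM+TGFB library was above every OSM library. The members that fell were FBN2 (fibrillin 2) at -0.55 and EFEMP1 (a fibulin) at -0.39, named after their values were seen.

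Of the matrix-cutting metalloproteinases, MMP2 went from 7.48, 8.59 and 6.40 CPM to 70.5, 63.2 and 61.9 CPM (3.12 ± 0.13, SE; edgeR adjusted p 2.5e-14). MMP10 went from 1.02, 0.709 and 1.13 CPM to 16.4, 10.3 and 8.21 CPM, and MMP13 from 1.34, 1.42 and 0.351 CPM to 14.5, 13.6 and 4.41 CPM. The low value of MMP13 in each group was replicate 3. SERPINB2 (-1.003) and ADAMTS1 (-1.18), a protease inhibitor and a protease named after their values were seen, were the members lower with TGFB. Fibroblast markers, several of them matrix genes, moved with this group: their sum over 8 genes was 87.9 to 110 CPM with OSM and 176 to 191 CPM with OSM+TGFB. Of those, 3 of the 5 tested were higher (24.6% of all rows were), and COL1A1 and DCN made up nearly all of the sum. COL3A1, THY1, LUM and PDGFRA were each at 0.316 CPM or less in every library. The part of the fibroblast markers in the result was not tested.

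Adhesion and contractile genes rose too. Of 13 integrins 10 were higher and 0 lower (median 0.94), where 24.6% and 24.2% of all rows were. ITGB3 (the beta chain of a fibronectin and vitronectin receptor) went from 9.41, 9.50 and 7.24 CPM to 126, 131 and 119 CPM, and its partner ITGAV from 424 ± 22.8 to 1392 ± 46.9 CPM (SD, n = 3). ITGA5, which pairs with ITGB1 to bind fibronectin, rose by 1.43 ± 0.10 and the collagen-binding chain ITGA1 by 1.62 ± 0.08. The members not called were ITGA6, ITGA11 and ITGB8, named after their values were seen.

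Of 22 contractile actin genes tested, 21 were higher and 0 lower (median 0.97), where 24.6% and 24.2% of all rows were. TAGLN (transgelin, an actin-binding protein of smooth muscle) went from 29.8, 26.6 and 29.6 CPM to 278, 298 and 374 CPM, and MYL9 (a myosin light chain) from 9.84, 8.02 and 7.83 CPM to 67.4, 76.5 and 86.6 CPM. TPM1 (tropomyosin 1) rose by 2.35 ± 0.10 and TGFB1I1 (HIC-5, a focal adhesion protein) by 1.47 ± 0.09. The member not called was ACTA2, smooth muscle actin, at 9.78 ± 2.34 and 9.43 ± 1.22 CPM, named after its values were seen.

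**Figure D2:**
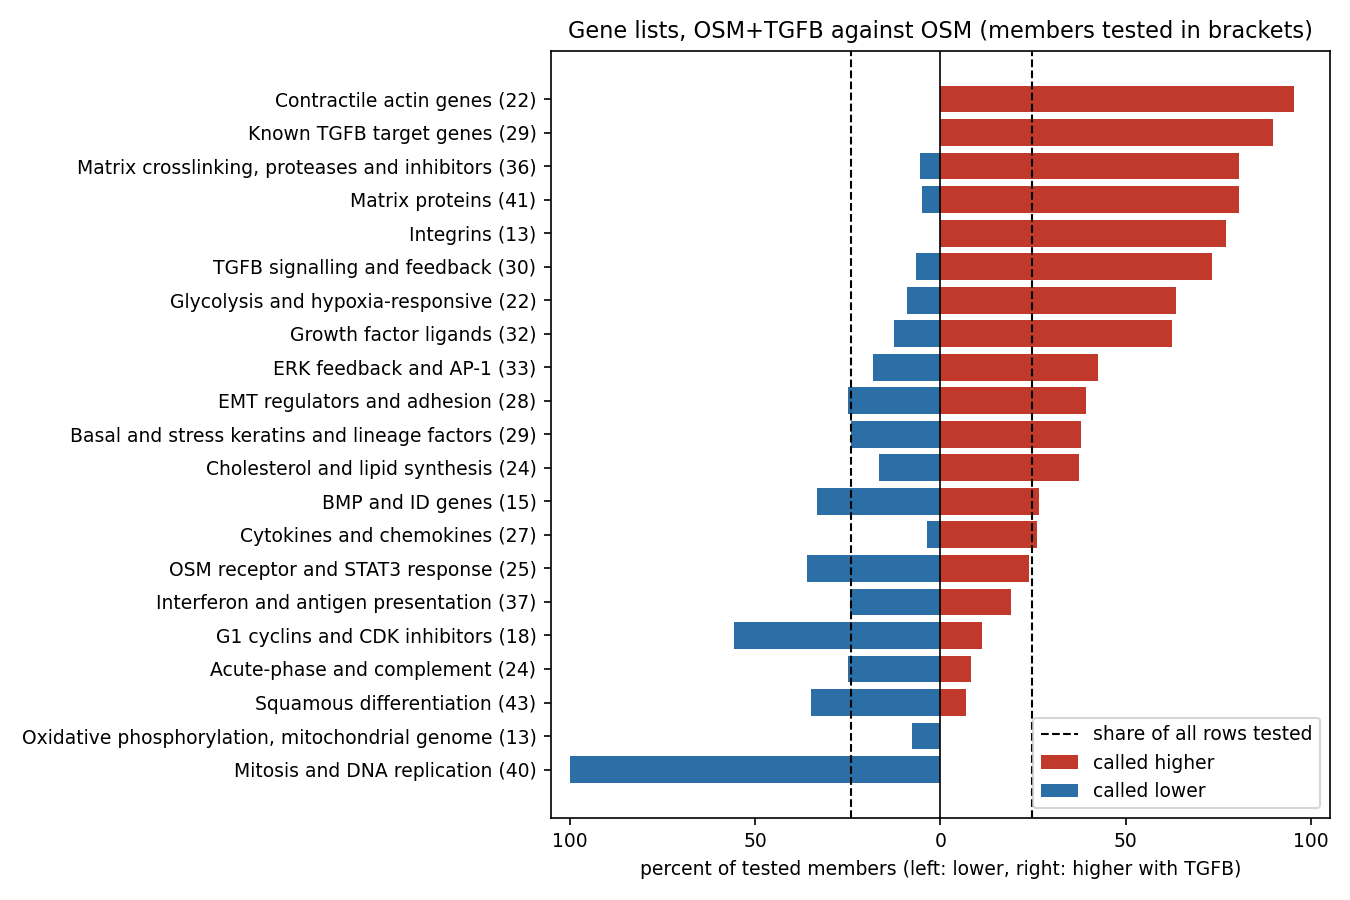
Percent of the tested members of each of 21 gene lists that were called higher (red, right) or lower (blue, left) with TGFB added to OSM, by edgeR at an adjusted p under 0.05; dashed lines mark the same over all rows tested, 24.6% higher and 24.2% lower. The contractile list (21 of 22) and the known targets (26 of 29) reach furthest to the right, and the mitosis list (40 of 40) to the left.

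EMT genes were mixed. Of 28 tested, 11 were higher and 7 lower (24.6% and 24.2% of all rows were), with a median of 0.09. The share that was lower was near that of all rows. CDH2 (N-cadherin, the mesenchymal cadherin) went from 7.71, 7.51 and 7.72 CPM to 38.7, 33.6 and 38.2 CPM (2.27 ± 0.09, SE; edgeR adjusted p 8.6e-15). CDH1 (E-cadherin, the epithelial one) rose as well, from 276, 318 and 243 CPM to 372, 444 and 409 CPM (0.55 ± 0.13; edgeR adjusted p 0.0011). Both cadherins were thus higher in every OSM+TGFB library than in any OSM library. Of the transcription factors that drive EMT, SNAI1 went from 15.2, 16.0 and 13.5 CPM to 53.5, 51.4 and 54.3 CPM, while SNAI2 rose by 0.56 ± 0.06 and ZEB1 by 0.83 ± 0.15. VIM (vimentin) rose by 0.78 ± 0.07. On the epithelial side EPCAM fell from 6.35 ± 0.614 to 3.27 ± 0.553 CPM and TJP3 (a tight junction scaffold) from 8.82 ± 3.60 to 3.71 ± 1.09 CPM (SD, n = 3).

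Keratins and lineage factors were also mixed, with 11 of 29 higher and 7 lower (24.6% and 24.2% of all rows were). The lower share was near that of all rows. KRT8, a keratin of simple epithelium, went from 163, 166 and 149 CPM to 533, 590.4 and 595 CPM. KRT81, a hair keratin, rose by 1.54 ± 0.15 and KRT6B, a keratin of stressed epidermis, by 1.19 ± 0.14; both have close paralogs, so reads can be split between copies. KRT15, a basal keratin, fell by 1.84 on the log2 scale, with replicate 3 the lowest of each group (216, 206 and 76.5 CPM against 60.6, 50.9 and 27.7 CPM). Of 43 genes of squamous differentiation, 15 were lower and 3 higher (24.2% and 24.6% of all rows were). FLG (filaggrin), TGM1 (transglutaminase 1) and KRT10 fell by 1.24, 1.32 and 1.15, while IVL (involucrin, of the cornified envelope) went the other way, from 4.01, 4.496 and 3.84 CPM to 27.5, 24.6 and 25.5 CPM.

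Genes of the OSM pathway changed less uniformly, with 6 of 25 higher, 9 lower and 10 not called (median -0.08). The higher share was near the 24.6% of all rows, of which 24.2% were lower. Of the receptor chains, OSMR went from 577, 586 and 503 CPM to 826, 825 and 764 CPM (0.53 ± 0.07, SE; edgeR adjusted p 8.1e-07), and IL6ST from 187, 194 and 199 CPM to 252, 266 and 253 CPM (0.41 ± 0.05). STAT3 itself stood at 632 ± 72.8 and 564 ± 21.4 CPM (SD, n = 3), a log2 difference of -0.16 (edgeR adjusted p 0.036) that lost its call in 5 alternatives. Its edgeR adjusted p was 0.185 without OSM replicate 2, 0.0549 without OSM+TGFB replicate 1, 0.0525 without OSM+TGFB replicate 3, 0.112 with only the groups compared and 0.0642 with no filter on low counts. SOCS3 stood at 169, 182 and 143 CPM with OSM and at 160, 163 and 140.3 CPM with both, which overlap (-0.10 ± 0.11). MYC, a STAT3 and growth target, went from 384, 398 and 362 CPM to 166, 177 and 191 CPM (-1.10 ± 0.09). CEBPD (a transcription factor of the acute phase) and FGL1 (a hepatic secreted factor) fell by 0.90 and 0.93.

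Acute-phase and complement genes were mostly not called: 2 of 24 were higher (24.6% of all rows were) and 6 lower, the latter near the 24.2% of all rows. HP (haptoglobin, which binds haemoglobin) went from 54.2, 106 and 67.4 CPM to 9.14, 21.2 and 19.4 CPM, a log2 fold change of -2.19 ± 0.33 (SE; edgeR adjusted p 1.3e-05). SAA1 and SAA2 (serum amyloid A) fell by 0.77 and 0.80, but they are near-identical copies, and SAA2 lost its call without OSM replicate 2 (-0.49; edgeR adjusted p 0.107), without OSM+TGFB replicate 1 (0.0509) or with only the groups compared (0.0666). CD55, which protects cells from complement, fell from 139 ± 16.5 to 85.2 ± 7.51 CPM (SD, n = 3). The higher members were SERPINA1 (0.54) and CD59 (0.62), named after their values were seen. The lower count rose to 10 without OSM+TGFB replicate 2 or OSM replicate 3, and the higher count to 4 without OSM replicate 2.

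Of 37 interferon and antigen presentation genes, 7 were higher and 9 lower, shares near or below the 24.6% and 24.2% of all rows. GBP1 and GBP2, interferon-inducible GTPases, rose by 1.34 ± 0.09 and 1.11 ± 0.22, while OAS1, a sensor of double-stranded RNA, fell from 11.5, 14.8 and 11.6 CPM to 6.23, 7.85 and 5.80 CPM.

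Every measured gene of the mitosis and DNA replication list was lower: 40 of 40, where 24.2% of all rows were, with log2 fold changes from -2.38 to -0.97 and a median of -1.61. MKI67, the proliferation marker, went from 291, 264 and 371 CPM to 76.7, 80.04 and 113 CPM (-1.78 ± 0.22, SE; edgeR adjusted p 1.2e-06). CENPF (a kinetochore protein) went from 248, 228 and 309 CPM to 56.3, 61.3 and 82.2 CPM, KIF20A (a kinesin of cytokinesis) fell by 1.94 ± 0.21 and CCNB2 (cyclin B2) by 1.88 ± 0.17. For MKI67 and CENPF replicate 3 was the highest library of each group, and its OSM+TGFB value was still below every OSM value. The OSM libraries were themselves high for this list: against PBS its median was 3.27, in a comparison that uses the same OSM libraries.

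Among 18 genes of the G1 phase, 10 were lower and 2 higher (24.2% and 24.6% of all rows were). CCNE2 (cyclin E2), CDC25A (a phosphatase that activates cyclin-dependent kinases) and RBL1 (p107, a relative of the retinoblastoma protein) fell by 1.27, 1.20 and 1.09. CDKN1A (p21, an inhibitor of cyclin-dependent kinases) went from 266, 284 and 208 CPM to 481, 469.8 and 409 CPM, 0.84 ± 0.12 (SE; edgeR adjusted p 5.2e-06). The other higher member was CDKN2D at 0.83, named after its values were seen. CCND1 (cyclin D1) stood at 40.4 ± 9.35 and 37.2 ± 6.49 CPM (SD, n = 3), which overlap, and did not pass the test (-0.12 ± 0.14; 0.07 without OSM replicate 3).

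**Figure D3:**
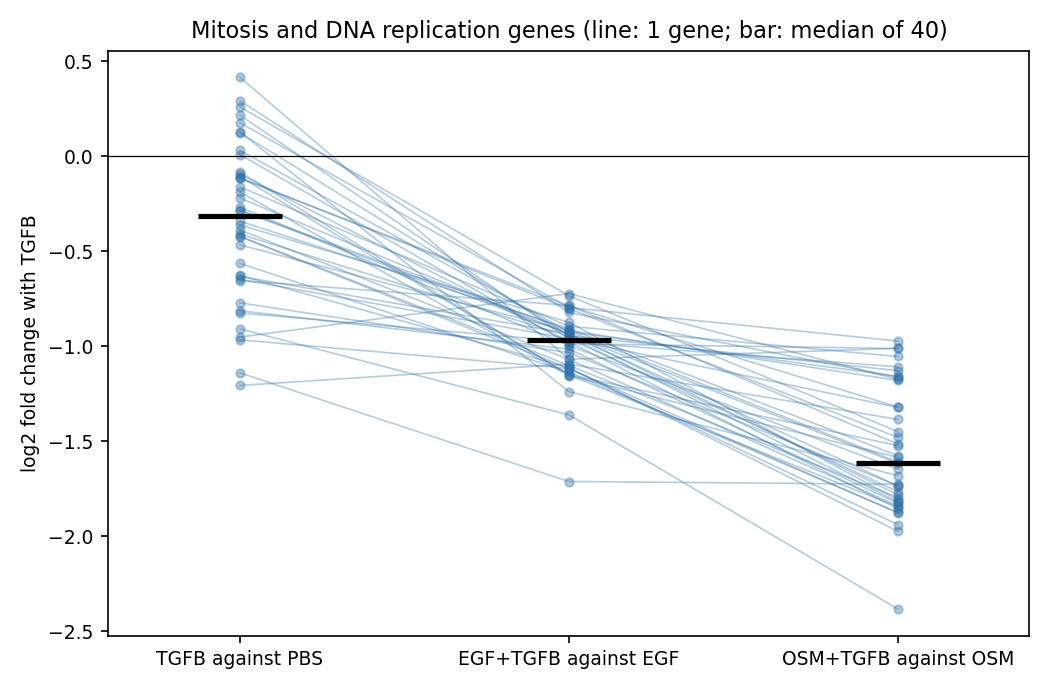
Log2 fold change with TGFB of the 40 mitosis and DNA replication genes in cells without another ligand, with EGF and with OSM, with 1 line a gene and a bar at the median. The medians are -0.31, -0.97 and -1.61; with EGF and with OSM all 40 lie below 0.

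Secreted growth factors were mostly higher, 20 of 32 against 4 lower (median 0.81), where 24.6% and 24.2% of all rows were. WNT5A, a Wnt ligand, went from 4.61, 4.61 and 4.51 CPM to 31.2, 21.8 and 25.7 CPM (2.52 ± 0.18, SE; edgeR adjusted p 1.8e-10). VEGFA, which drives vessel growth, rose by 1.19 ± 0.12. The EGF receptor ligand EREG (epiregulin) fell from 7.79, 6.05 and 11.7 CPM to 2.16, 2.36 and 2.52 CPM, and its relatives AREG (amphiregulin, -1.18) and EPGN (epigen, -0.48) and the neurotrophin BDNF (-0.66), named after their values were seen, were the other lower members. Of 27 cytokines and chemokines, 7 were higher, a share near the 24.6% of all rows, and 1 was lower (24.2% of all rows were). The counts were 11 and 2 with a replicate block, and 2 were lower without OSM replicate 2. IL11, of the same family as OSM, went from 1.62, 1.22 and 1.19 CPM to 6.31, 5.12 and 6.35 CPM. CCL20, a chemokine, rose by 1.59 ± 0.12, IL24 by 1.23 ± 0.24 and IL32 by 2.26 ± 0.17. IL6, named after its values were seen and under the 5 CPM used for choosing names, stood at 0.171, 0.0886 and 0.0810 CPM with OSM and at 2.13, 2.82 and 3.48 CPM with both. The lower member, IL33 at -1.90, was also named after its values were seen.

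To ask whether OSM altered the response to TGFB, the change was set beside that of TGFB against PBS, which shares no library with it. Without a ligand, 5569 rows (33.5%) were called. The 4084 rows called in both were 50.4% of the calls with OSM and 73.3% of those without ligand, and 94.2% of them had the same direction. The difference between the 2 responses, tested as an interaction, was called for 3565 rows (21.5%), 1471 more positive with OSM (8.86%) and 2094 more negative (12.6%). All 236 rows called in opposite directions were among these, which is nearly certain in advance when 2 called changes have opposite signs.

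SLCO2A1, a prostaglandin transporter, had the most positive difference among the genes that met the limits for naming. It stood at 4.20, 4.95 and 4.45 CPM with PBS, 4.02, 3.501 and 2.51 CPM with TGFB, 16.4, 11.2 and 15.9 CPM with OSM and 116, 95.9 and 109.8 CPM with both. The difference of log2 fold changes was 3.33 ± 0.24 (SE; edgeR adjusted p 6.2e-09), and the TGFB change alone was not called. LMCD1 rose from 1.12, 0.990 and 1.35 CPM to 2.69, 2.73 and 2.87 CPM without OSM, and its difference was 3.05 ± 0.22 (SE; edgeR adjusted p 2.8e-09). For DENND3 (an activator of Rab GTPases) and TNS1 (tensin 1, a focal adhesion protein) the differences were 2.31 ± 0.18 and 2.26 ± 0.15, and without OSM neither passed the test (-0.16 and 0.08). In both, OSM alone was the lowest of the 4 groups: DENND3 stood at 20.6, 18.5, 4.61 and 20.4 CPM with PBS, TGFB, OSM and both, and TNS1 at 26.6, 28.2, 12.9 and 65.9 CPM. LCE3D, a cornified envelope gene with close paralogs, had a difference of 2.25 ± 0.64. For TMEM265 the difference was 2.57, but OSM replicate 1 held 0 counts beside 162 and 125 in the others. Its change with TGFB went from 2.55 to 1.97 without that library, and was not called (edgeR adjusted p 0.0754) when only the OSM and OSM+TGFB libraries entered the fit.

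At the other end, KCNJ15, a potassium channel, went from 2.22, 2.41 and 3.06 CPM with PBS to 31.8, 25.8 and 30.6 CPM with TGFB. With OSM the same step was from 71.2, 59.8 and 75.5 CPM to 90.7, 88.7 and 98.6 CPM, so the rise was smaller from a higher level (difference -3.09 ± 0.16, SE; edgeR adjusted p 1e-11). SPOCD1, which acts in transposon silencing in the germ line, and AMIGO2, an adhesion molecule, had differences of -2.71 ± 0.50 and -2.55 ± 0.26. SPOCD1 had only 4, 4 and 5 counts in the PBS libraries, so the size of its difference is uncertain. TNFRSF6B (a decoy receptor for FASL), MFAP2 (a microfibril protein) and SCG5 (a secretory granule chaperone) would rank first by fitted value. They had at most 2 counts in any PBS library, so no difference is given. With OSM, TNFRSF6B fell from 29.5, 24.5 and 37.7 CPM to 14.6, 11.3 and 11.1 CPM, whereas MFAP2 rose by 2.44 ± 0.25 and SCG5 by 1.27 ± 0.24.

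**Figure D4:**
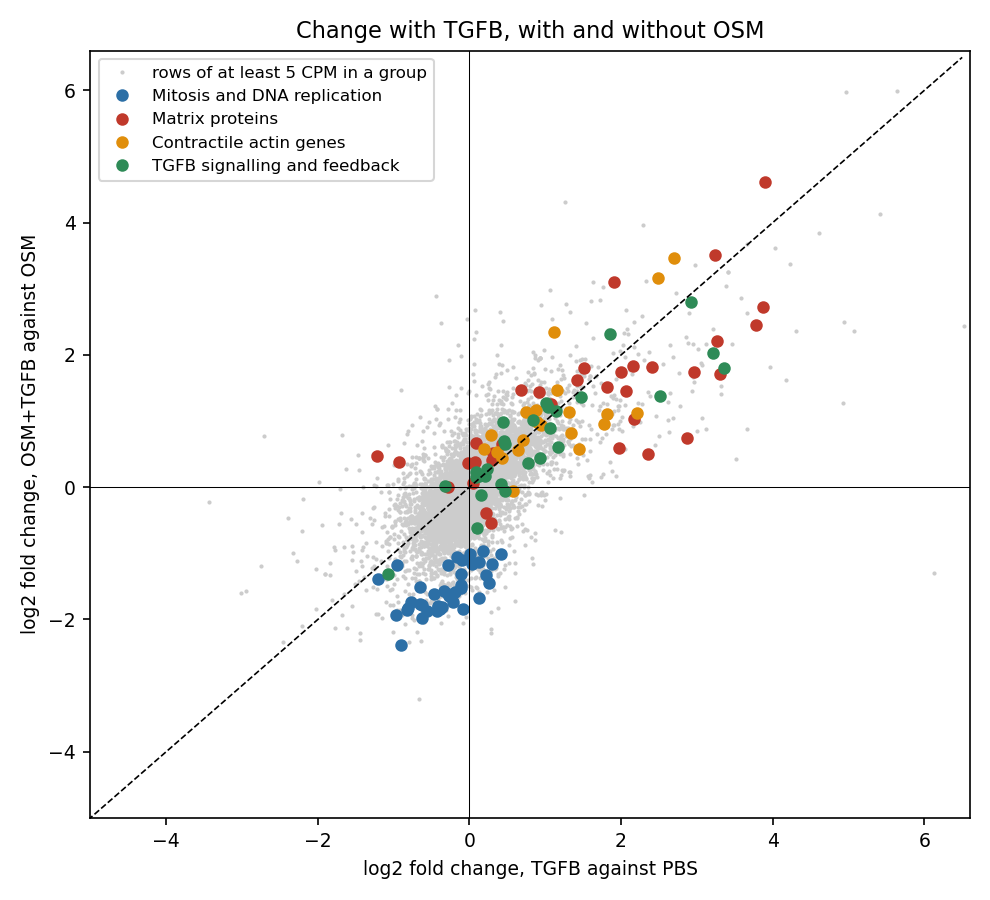
Log2 fold change with TGFB in cells without ligand (x axis) against that with OSM (y axis) for 11623 rows of at least 5 CPM in a group, with 4 gene lists in colour and the line of equal change dashed. The 40 mitosis genes lie below that line, at a median of -1.61 with OSM and -0.31 without.

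Of the 40 mitosis and replication genes, 36 had a called, more negative difference, where 12.6% of all rows did, and the median difference was -1.28. Without ligand 11 of them were lower and 1 higher, where 14.7% and 18.9% of all rows were. MKI67 stood at 23.6, 13.6 and 27.4 CPM with PBS and 14.2, 11.7 and 15.9 CPM with TGFB, which overlap, and its difference was -1.15 ± 0.33 (SE; edgeR adjusted p 0.017). For MYC the difference was -0.72 ± 0.13 and for CDKN1A 0.71 ± 0.17.

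Of the 30 signalling and feedback genes, 9 differences were called negative and 1 positive, where 12.6% and 8.86% of all rows were. PMEPA1 went from 48.4, 44.2 and 46.6 CPM with PBS to 505, 476 and 450.2 CPM with TGFB, a log2 fold change of 3.36, and its difference was -1.56 ± 0.14 (SE; edgeR adjusted p 1e-07). SMAD7 and SKIL, with differences of 0.27 ± 0.11 and -0.11 ± 0.10, did not pass the test. The matrix list split, with 11 of 41 differences called positive and 12 negative, against the same 8.86% and 12.6%: FBLN5 had 1.19 ± 0.16 and TGM2 of the crosslinking list -1.29 ± 0.27. FN1 reached 1964 ± 77.6 CPM with TGFB alone and 8758 ± 452 CPM with OSM as well (SD, n = 3), and its difference was 0.72 ± 0.25 (SE; edgeR adjusted p 0.040). SOCS3 rose with TGFB alone, from 1.199, 1.83 and 1.44 CPM to 2.87, 3.21 and 3.01 CPM, and its difference was -1.11 ± 0.22 (SE; edgeR adjusted p 0.001).

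**Figure D5:**
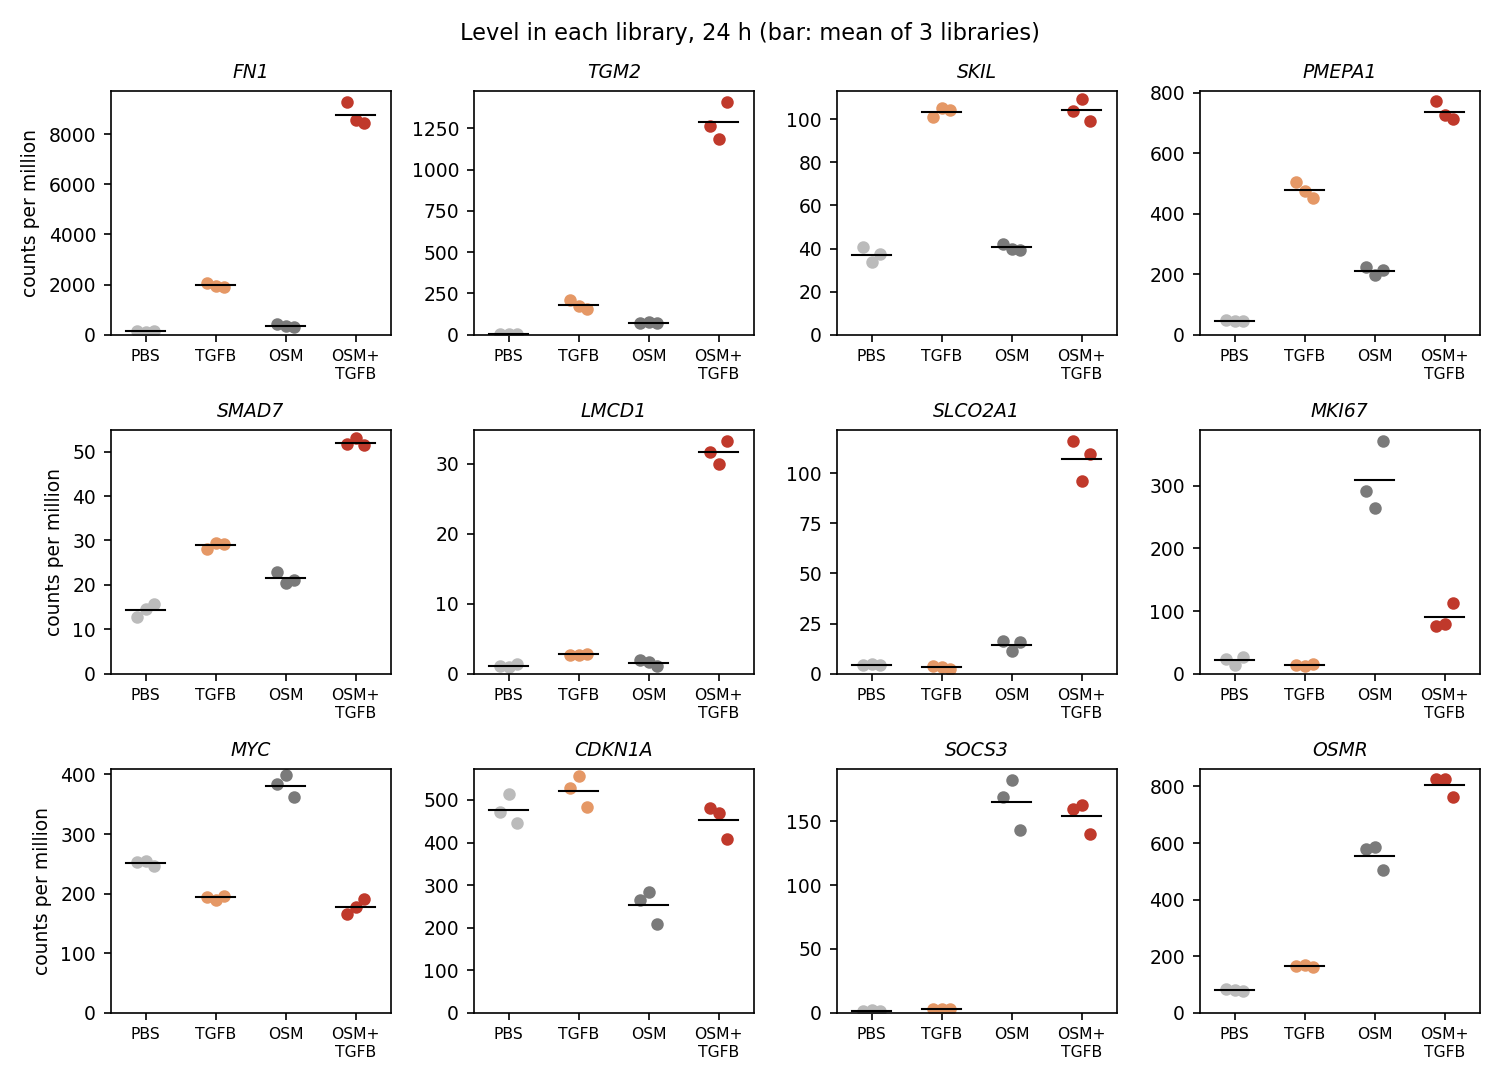
Level in CPM of 12 genes in the 3 libraries of PBS, TGFB, OSM and OSM+TGFB, with a bar at the mean; each panel has its own linear axis from 0. FN1, LMCD1 and SLCO2A1 are highest with both ligands, MKI67 and MYC are highest with OSM alone, and SOCS3 is at 140.3 to 182 CPM in both groups with OSM.

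The comparison was also set beside TGFB added to EGF (8663 rows called, 52.2%), with which it shares no library. The 6540 rows called in both were 80.7% of the calls with OSM and 75.5% of those with EGF, and 98.5% had the same direction. For TGFB without ligand the corresponding shares were 50.4% and 73.3%. More rows were called with EGF than without ligand (52.2% against 33.5%), which by itself raises the first share. The difference was called for 1071 rows (6.45%), 517 more positive with OSM (3.11%) and 554 more negative (3.34%). The count of more negative rows was 311 without OSM+TGFB replicate 1, 360 without OSM replicate 2 and 317 without EGF+TGFB replicate 2. With 1 library left out, the more positive rows outnumbered the more negative ones except without EGF replicate 2 or EGF replicate 3.

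SOCS3 had a difference of -2.43 here (edgeR adjusted p 1.3e-07): with EGF it went from 1.28 to 6.35 CPM on addition of TGFB. With EGF, SNAI1 rose from 0.359 to 5.79 CPM, and its difference was -2.17 ± 0.23 (SE; edgeR adjusted p 1.6e-06), while its level with OSM alone, 14.9 ± 1.26 CPM (SD, n = 3), was already above both. IVL had a difference of 2.18 ± 0.23, MMP10 of 2.25 ± 0.52, LDLRAD4 of 1.84 ± 0.29 and FN1 of 1.41 ± 0.25. In the mitosis list 1 of 40 differences was called, that of KIF11 at -0.67 (named after its values were seen), although the median fell further with OSM (-1.61) than with EGF (-0.97). Of the interferon list, 21 of 37 were higher with TGFB in EGF (25.8% of all rows were) and 7 with TGFB in OSM, and 7 differences were called, all more negative with OSM (3.34% of all rows were).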

How the data were processed

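Polyadenylated RNA was made into libraries with a stranded kit, per the labels' protocols. The deposited values were taken as the authors' estimated counts, since the submitters' processing notes list kallisto, and are whole numbers for 40487 rows and 27 libraries; rounding changed nothing. Per the submitters' processing notes the tools were Trim Galore 0.4.3, cutadapt 1.10, FastQC 0.11.5, kallisto 0.46.2 and R 3.5.0 with GRCh38.p5/hg38; the annotation and the rounding are not given in the sources used here. Estimated counts can be split between near-identical copies of a gene.

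Rows were filtered with filterByExpr (16611 left), scaled by TMM and fitted over all 27 libraries in 9 groups with edgeR 4.0.16 in R 4.3.3 (glmQLFit, robust; prior count 0.125; biological coefficient of variation 10.1%). The contrasts OSM+TGFB minus OSM, and its difference from TGFB minus PBS and from EGF+TGFB minus EGF, were tested with glmQLFTest, with Benjamini-Hochberg adjustment over all rows and calls at an adjusted p under 0.05. That test returns no standard error. Values marked SE, and those after ± on a log2 scale, are the absolute log2 fold change or difference divided by the square root of the test's F statistic. They restate the test and are not independent estimates of error. CPM are TMM-scaled. Replicate pairs differed by more than sampling noise (chi-square per degree of freedom 7.97 to 31.5). Coordinates are GENCODE v44 gene spans.

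Members and the 21 gene lists were chosen with earlier results of these data known. Genes were named by rule: symbols with at least 5 CPM, called and without overlap, the 12 largest rises and 12 largest falls, the 6 largest differences each way from TGFB without ligand, the 4 largest changes of each list, and 25 pathway genes whatever their values, of which some values are not reported here. Other names were chosen after their values were seen. Alternatives were upper-quartile scaling, DESeq2 1.42.0, no filter, summed rows of a symbol, a replicate block, only the groups compared, a 2-fold limit and leaving out each library; leaving out both replicates 3, and summing identical rows too, was chosen after seeing the data. On simulated counts for 16223 genes the test of OSM+TGFB against OSM recovered 82% of 2-fold and 60% of 1.41-fold changes with 5 false calls, and that of the difference from TGFB without ligand 73% and 35% with 7 false calls. The simulation changed 200 genes, left the others equal in all groups and took its spread from the fit. In the data 48.8% of rows were called, so these rates may not carry over.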

Additional observations from a re-analysis of the deposited data

Results flagged for a closer look

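The change with TGFB in the presence of OSM was compared with that without ligand for the 121 genes named by rule, by edgeR's test of the difference. It was called for 60 of them, where 21.5% of all rows were, but the choice of genes set much of this count. Of the named genes, 12 were chosen for the size of this difference. Many others were chosen for the size of the change with TGFB added to OSM, which is part of it. The count therefore cannot be judged against the share of all rows. Of the 60, 38 were also at least 2-fold apart and above the floor of 3 counts, and these are given as the log2 fold change with OSM minus that without ligand. A total of 24 were more negative with OSM.

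Of the genes of the cell cycle, the value was -2.42 for SPC25, -1.69 for SAPCD2, -1.48 for NUSAP1, -1.46 for CCNB2, -1.45 for CCNE2, -1.35 for CENPF, -1.32 for CDC25A, -1.15 for MKI67 and -1.13 for RBL1. Each of these 9 fell with OSM+TGFB against OSM. The value for SPC25 rests in part on OSM+TGFB replicate 1, with 5 counts beside 81 and 64 in the others. Among TGFB pathway and matrix genes it was -1.56 for PMEPA1, -1.29 for TGM2, -1.19 for TGFB2, -1.14 for CCN2 and -1.13 for LTBP2; each of these 5 rose in both settings, and by less with OSM. Of the others, KCNJ15 had -3.09, SPOCD1 -2.71, AMIGO2 -2.55, CXCR2 -1.97, EPCAM -1.55, GLDC -1.54, NMU -1.54, KCNQ5 -1.50, CAVIN2 -1.22 and SOCS3 -1.11. The sizes for SPOCD1 and CXCR2 are uncertain. SPOCD1 had 4, 4 and 5 counts with PBS, and CXCR2 had 6, 9 and 12 with PBS and 9, 3 and 11 with TGFB. EPCAM stood at 9.61 CPM with PBS and 14.5 CPM with TGFB, a rise, but fell with TGFB when OSM was present.

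The 14 genes with a more positive value were SLCO2A1 at 3.33, LMCD1 at 3.05, TMEM265 at 2.57, DENND3 at 2.31, TNS1 at 2.26, LCE3D at 2.25, WNT5A at 2.08, KRT8 at 1.41, KRT81 at 1.37, IVL at 1.32, TPM1 at 1.23, BMP2 at 1.22, FBLN5 at 1.19 and GBP2 at 1.01. Many of these stood lower with OSM alone than with PBS, for example IVL at 4.11 against 112 CPM, FBLN5 at 2.07 against 14.7 CPM and TNS1 at 12.9 against 26.6 CPM. The choice of genes favours this, since a low OSM level and a high PBS level in the same libraries both raise the value. SLCO2A1 and LMCD1, with the largest values, stood higher with OSM alone (14.5 against 4.53 and 1.59 against 1.15 CPM). The value for TMEM265 rests in part on an OSM library with 0 counts.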

How the results depend on the processing

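No called change with TGFB added to OSM among the named genes changed sign under the alternatives run. CCND1, not called, went from -0.12 to 0.07 without OSM replicate 3. The count for TGFB added to OSM was 8073 with upper-quartile scaling (3864 higher and 4209 lower, against 4083 and 4018). It was 8051 with DESeq2 (4054 and 3997), 7453 without a filter (3735 and 3718) and 6999 with only the groups compared (3488 and 3511). With libraries left out it was 7031 to 7622, the lowest without both replicates 3. In each fit with libraries left out, more rows were lower than higher. At least 2-fold, it was 1450 (760 higher, 690 lower). For the difference from TGFB without ligand, 3565 became 725 (232 more positive, 493 more negative) at least 2-fold, and for that from TGFB with EGF 1071 became 221 (119 and 102). With only the groups compared, 260 of the latter were more positive in place of 517. With libraries left out, its more positive count ran from 373 to 749 and its more negative count from 311 to 526, the positive ones being 45.4% to 60.0% of the calls.

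The labels give replicate numbers but do not say that they mark a shared day or culture. Deviations of same-numbered OSM and OSM+TGFB libraries correlated at 0.0887, 0.103 and 0.158, each library best with its own number, which is a hint from the data and not the design. With a replicate block, 8536 rows were called for TGFB added to OSM, 4342 for the difference without ligand and 1809 for that with EGF (820 more positive, 989 more negative).

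Of the named genes' changes with TGFB added to OSM under the alternatives, 1675 kept their side of the threshold, 18 lost the call and 1 gained it. Single genes' differences from TGFB without ligand or with EGF were not followed through the alternatives. The losses were in ID2, IL1RN, MT-ND2, SAA2, STAT3 and TMEM265, and the cause was not tested. The 9 list counts led with (126 values) stayed within 1.5 times, and of the other list counts 430 did and 32 did not. Depth limits genes with few counts: 1 count was about 0.03 CPM, and a PBS level at or under 3 counts gave no fold change.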

Other observations

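Metabolic genes that the main comparisons did not turn on also moved. Of 22 glycolysis and hypoxia-responsive genes, 14 were higher with TGFB added to OSM and 2 lower (24.6% and 24.2% of all rows were). PFKFB4, which makes a regulator of glycolysis, went from 27.9, 23.1 and 22.0 CPM to 51.4, 47.8 and 49.1 CPM, and P4HA1, a collagen prolyl hydroxylase, from 69.9, 64.4 and 69.4 CPM to 133, 129.9 and 124 CPM. The lower members were HK2 (hexokinase 2) at -0.60 and CA9 (carbonic anhydrase 9) at -0.62, named after their values were seen. In 13 of the 22 the change was more positive with OSM than without ligand, by a called difference (8.86% of all rows). Without OSM replicate 1, OSM+TGFB replicate 2 or OSM+TGFB replicate 3, 1 member was lower.

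Of 24 cholesterol and lipid synthesis genes, 9 were higher and 4 lower (24.6% and 24.2% of all rows were). IDI1, of the mevalonate pathway, went from 73.1, 71.8 and 97.0 CPM to 131, 146 and 174 CPM. FASN (fatty acid synthase) went the other way, from 665, 729 and 674 CPM to 355, 399 and 387 CPM, as did ELOVL6, a fatty acid elongase, at -0.89 ± 0.11 (SE). The higher count was 4 without OSM+TGFB replicate 3, and 5 without OSM replicate 1 or OSM replicate 2.

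In the list of BMP and ID genes, 4 of 15 were higher and 5 lower, not far from the 24.6% and 24.2% of all rows. BMP2, a ligand of the related BMP pathway, went from 4.49, 3.96 and 5.27 CPM to 13.0, 12.9 and 12.4 CPM. ID2, a BMP target, fell by 0.50 on the log2 scale and lost its call without OSM replicate 2 or OSM+TGFB replicate 1. The lower count was 2 without OSM+TGFB replicate 1, and 3 without OSM replicate 1 or OSM replicate 2. Of 33 ERK feedback and AP-1 genes, 14 were higher and 6 lower (24.6% and 24.2% of all rows were). IER3, an early response gene with 6 rows for its symbol, went from 9.16, 8.13 and 9.35 CPM to 24.8, 23.0 and 23.1 CPM, and SPRED3 and DUSP4, inhibitors of ERK signalling, rose by 1.21 ± 0.18 and 0.89 ± 0.15. The higher count was 9, near the 24.6% of all rows, without OSM replicate 1, OSM+TGFB replicate 1 or OSM+TGFB replicate 2. Of 13 genes of the mitochondrial genome, 0 were higher and 1, MT-ND2, was lower (-0.23 ± 0.09; 24.2% of all rows were lower). MT-ND2 lost its call in 6 alternatives (edgeR adjusted p 0.0523 to 0.108). The lower count was 7 without OSM replicate 2, 4 without OSM+TGFB replicate 3, and 0 without OSM replicate 1, OSM replicate 3, OSM+TGFB replicate 2 or both replicates 3. It was 3 with DESeq2, 4 with a replicate block or only the groups compared, and 0 with no filter on low counts.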
